A study of Mus musculus with 75 samples.

Results

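Leptin-treated fasted mice were compared with freely fed mice in nuclei of hypothalamic cells that carry the long leptin receptor, LepRb. The comparison took 12 of the 75 samples of the series, 6 of open chromatin (ATAC-seq) and 6 of histone H3 acetylated at lysine 27 (H3K27ac ChIP-seq). In each assay these were all GFP-positive libraries of 3 of the 4 treatments: FedSSS (Fed), FasSSL and FasLLL, with 2 libraries each, so that 4 leptin libraries stood against 2 Fed libraries. All mice were LepRcre/+; SUN1-sfGFP/+, a genotype in which Cre from the leptin receptor gene turns on a GFP-tagged protein of the nuclear envelope. GFP therefore also marks cells that expressed the gene at any earlier stage. Fed mice ate freely for 36 h. FasSSL mice were fasted for 36 h and given leptin at 5 mg/kg once, at 34 h, and FasLLL mice were fasted for 36 h and given leptin at 5 mg/kg 3 times, at 12, 24 and 34 h. Hypothalami were pooled before nuclei were sorted, and the labels do not say whether replicates 1 and 2 came from separate pools, so the p-values reflect no more than how far these samples spread, and that spread may be technical. Food and leptin differ together between the groups, and their parts in a difference from Fed cannot be told apart here.

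Leptin is a hormone of fat cells whose blood level falls in a fast. LepRb is the receptor form that signals through JAK2 and STAT3, and in the hypothalamus it sits on neurons that control feeding and energy use. ATAC-seq cuts DNA that is free of nucleosomes, at promoters, enhancers and other regulatory elements, and H3K27ac lies on the nucleosomes of active promoters and enhancers. The comparison asks whether the chromatin of LepRb nuclei after a fast with leptin still differs from the fed state.

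No region passed the test in either assay. Of 31424 ATAC regions tested, 0 (0%) differed between the 4 leptin libraries and the 2 Fed libraries at a limma adjusted p under 0.05, and the smallest adjusted p was 0.0627. Of 97742 H3K27ac regions tested, 0 (0%) differed, with a smallest adjusted p of 0.138. An unadjusted p under 0.05 was found for 1597 ATAC regions (5.08%), 941 higher in the leptin libraries (2.99%) and 656 lower (2.09%), and 3827 H3K27ac regions (3.92%), 2008 higher (2.05%) and 1819 lower (1.86%). An even spread of p-values would put 5% of regions there, and the plot of p-values shows ATAC near that share and H3K27ac below it. The call count moved when 1 library was left out: 4 ATAC regions were called without Fed replicate 1 and 4 without FasLLL replicate 2, and 1 without FasLLL replicate 1. In H3K27ac, 67 regions (42 higher and 25 lower) were called without Fed replicate 2, 13 without FasSSL replicate 1 and 1 without FasLLL replicate 1.

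**Figure D1:**
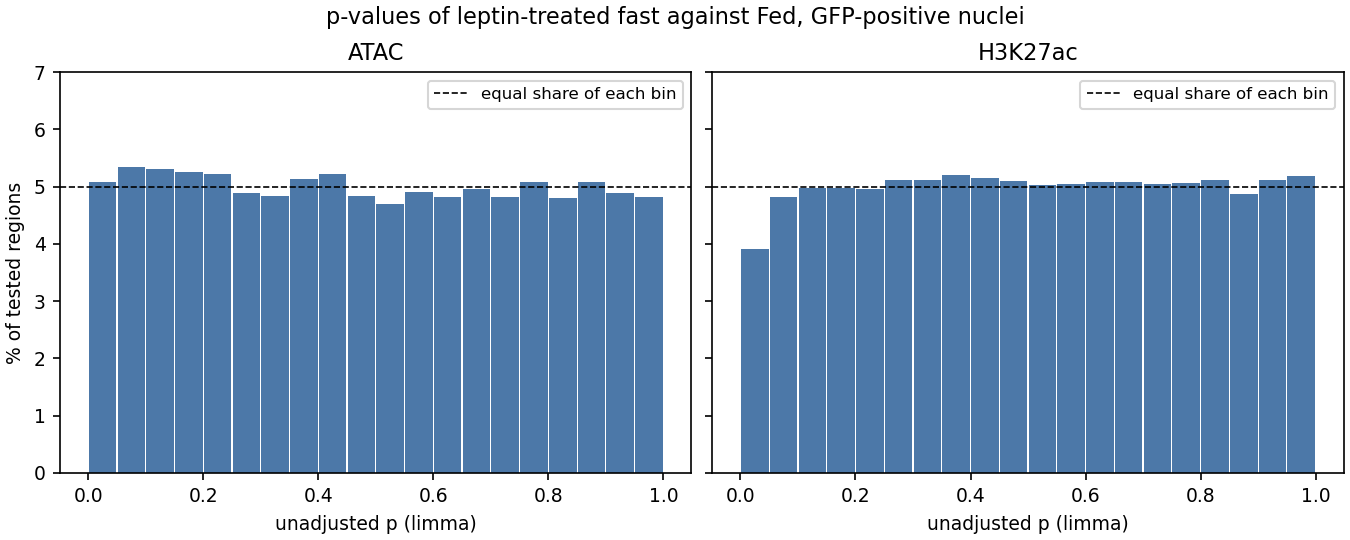
Unadjusted limma p-values of the leptin-treated fast against Fed over all tested regions of each assay, in 20 bins of equal width (x axis: p; y axis: % of tested regions). The lowest bin holds 5.08% of ATAC and 3.92% of H3K27ac regions, near or below the dashed line of equal shares.

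The intervals say how large a change these libraries could have missed. The median half-width of the 95% interval of the log2 difference was 0.59 for ATAC and 0.47 for H3K27ac, and it was narrower for strong regions: in ATAC it was 0.79 in the 25% of regions with the lowest signal and 0.36 in the 25% with the highest, and in H3K27ac 0.72 and 0.28. For 23518 ATAC regions (74.8%) and 84259 H3K27ac regions (86.2%) the whole interval lay within a 2-fold change in either direction. For these regions a change of 2-fold or more lies outside the interval. The remaining regions could hold such a change undetected. Among them, the whole interval lay beyond a 2-fold change in 5 ATAC and 26 H3K27ac regions, none of which was called. Each interval is for a single region, with no adjustment for the number of regions. The estimates themselves were small, since 95% of ATAC regions lay between −0.61 and 0.67 and 95% of H3K27ac regions between −0.51 and 0.55 on the log2 scale.

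The replicate numbers gave a second view that shares no library between its 2 sides. Within number 1, the mean of FasSSL and FasLLL minus Fed was taken for every region, and the same within number 2. Across the 31424 ATAC regions the 2 differences had a Pearson r of 0.02, and 50.3% of regions had the same sign in both numbers. Across the 97742 H3K27ac regions r was 0.03, with 49.8% of the same sign. These are descriptions across regions, which are not independent replicates. Both leptin libraries lay above the Fed library of their number, in both numbers, at 11.4% of ATAC regions and 10.2% of H3K27ac regions, and below it at 11.6% and 11.4%. All 4 leptin libraries lay above both Fed libraries at 5.94% of ATAC and 3.19% of H3K27ac regions, and below both at 6.16% and 4.08%. By these counts higher and lower regions were about equally common in ATAC, and lower regions were somewhat more common in H3K27ac.

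**Figure D2:**
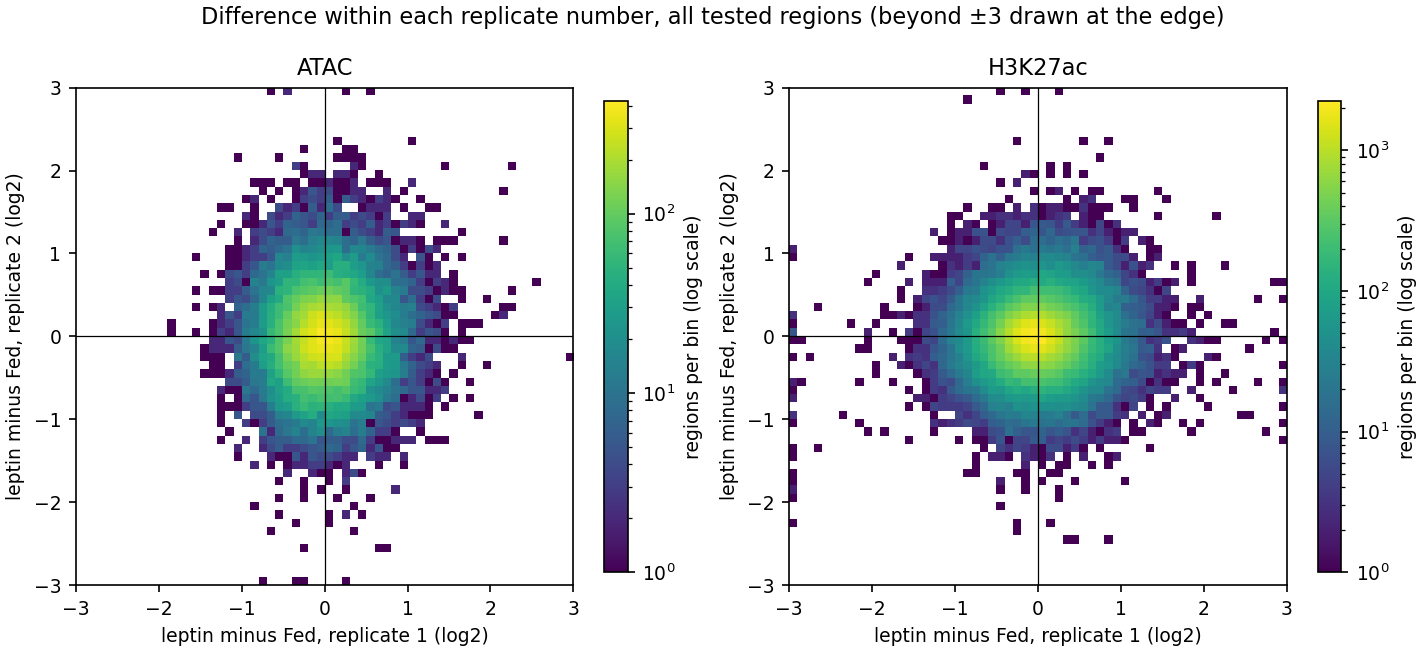
Mean of FasSSL and FasLLL minus Fed within replicate 1 (x axis, log2) and within replicate 2 (y axis, log2), as counts of tested regions per bin. In both assays the cloud is centred near 0 with no tilt (r = 0.02 for ATAC and 0.03 for H3K27ac), and the H3K27ac cloud has a column of regions at the left edge, far below 0 in replicate 1.

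The libraries differed in ways that the treatment does not name. In H3K27ac, the 3 replicate 1 libraries carried more mitochondrial signal (0.075% of the total in Fed, 0.148% in FasSSL and 0.107% in FasLLL) than the 3 of replicate 2 (0.0223 to 0.0287%), and less X chromosome signal (0.845 to 0.860% against 1.29 to 1.42%). As each number held 1 library of each group, the replicate block took out what the replicate 1 libraries shared. It did not take out how they differed. Of the 3, Fed had the least mitochondrial signal, and their summed Y chromosome signal was 2855 in Fed, 12703 in FasSSL and 5428 in FasLLL. The part of this in the differences from Fed was not tested. In ATAC, mitochondrial regions held 7.04 and 8.71% of the signal in Fed and 5.91 to 10.9% in the leptin libraries. In an exact two-sided permutation test within replicate number, none of 5 such library values in either assay reached the smallest p that its 9 arrangements allow, 0.111, and p ran from 0.444 to 1. The values deposited are normalized, so read depth is unknown.

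The named ATAC regions are those with the smallest p in each direction, and their differences are values, not calls. Among the 8 with more open chromatin in the leptin libraries, 7 had all 4 leptin libraries above both Fed libraries. On chromosome 2 (14465091 to 14465614, a weak region of 524 bp), the normalized signal was 3.0 and 5.4 in Fed replicates 1 and 2, 13.8 and 27.5 in FasSSL, and 22.3 and 23.7 in FasLLL. The groups did not overlap, and the log2 difference was 2.13 (SE 0.36, limma adjusted p = 0.0627). This was the smallest p of the ATAC table, and the fasted saline libraries (FasSSS), which had no part in the fit, held 9.8 and 6.1, between Fed and leptin. Its Fed mean of 4.20 was under the filter on a mean signal of 10, so that it entered the test through its leptin values (mean 21.8), and its values are a description. With no filter its adjusted p was 0.371, and over 21 alternative settings the adjusted p ran from 0.00356 to 0.857. In GFP-negative nuclei the same region held 7.3 and 7.3 in Fed, 7.0 and 9.8 in FasSSL, and 7.5 and 9.6 in FasLLL, so the groups there lay close together.

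The region with the second smallest p had by far the strongest signal of the 8. It spanned 4616 bp of chromosome 1 (24618383 to 24622998) and held 689 and 973 in Fed, 926 and 1728 in FasSSL, and 888 and 1592 in FasLLL. The leptin libraries exceeded Fed within each number, but the replicate 2 values were so much higher that the groups overlapped without the block. The log2 difference was 0.58 (SE 0.10, adjusted p = 0.0776), with 0.39 within replicate 1 and 0.77 within replicate 2. Over 22 alternative settings its adjusted p ran from 4.64e-14 to 1, under 0.05 in 8 of them. FasSSS held 1335 and 1545. Mitochondrial signal was 89057 and 118175 in Fed, 98185 and 154235 in FasSSL, and 73394 and 121476 in FasLLL; it was also higher in replicate 2, and its part in the difference was not tested.

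The 2 regions ranked next by p were weak and short. On chromosome 5 (131487985 to 131488494), Fed held 3.0 and 4.0, FasSSL 16.4 and 13.4, and FasLLL 17.2 and 18.4. On chromosome 12 (13799073 to 13799855), the values were 4.9 and 8.3 in Fed, 23.2 and 20.4 in FasSSL, and 28.1 and 18.4 in FasLLL. Both passed the filter on a mean signal of 10 through the leptin libraries, since their Fed means were 3.50 and 6.60, so a difference in this direction was in part a condition of their being tested. The groups did not overlap at either region, with log2 differences of 1.95 (SE 0.39) and 1.65 (SE 0.34) and a limma adjusted p of 0.291 each. In FasSSS the first held 13.2 and 10.7 and the second 15.5 and 17.5, all above both Fed libraries. FasSSS thus lay on the same side of Fed as the leptin libraries at these 2 places. Both regions were named for their differences from these same Fed libraries, so that side is in part fixed by the choice.

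The other 4 named regions with higher ATAC signal had log2 differences of 1.08 to 1.29 and an adjusted p of 0.341 each. On chromosome 1 (193065769 to 193066626), Fed held 19 and 23.7, FasSSL 42.8 and 53.8, and FasLLL 55.1 and 35.6. On chromosome 13 (112100109 to 112101156), the values were 19 and 19.5 in Fed, 37.7 and 36.3 in FasSSL, and 58.9 and 39.6 in FasLLL. These 2 regions held 28.0 and 28.5, and 18.9 and 30.7, in FasSSS, so that 1 of those 4 saline values did not exceed Fed. On chromosome 5 (111302021 to 111302758), Fed held 14.3 and 8.3, FasSSL 29.2 in both libraries, and FasLLL 34.4 and 21.1. On chromosome 6 (67051933 to 67053231), Fed held 12.4 and 12.5, FasSSL 38.6 and 27.5, and FasLLL 33.2 and 23.7. In all 4 regions the leptin libraries lay above both Fed libraries without overlap.

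**Figure D3:**
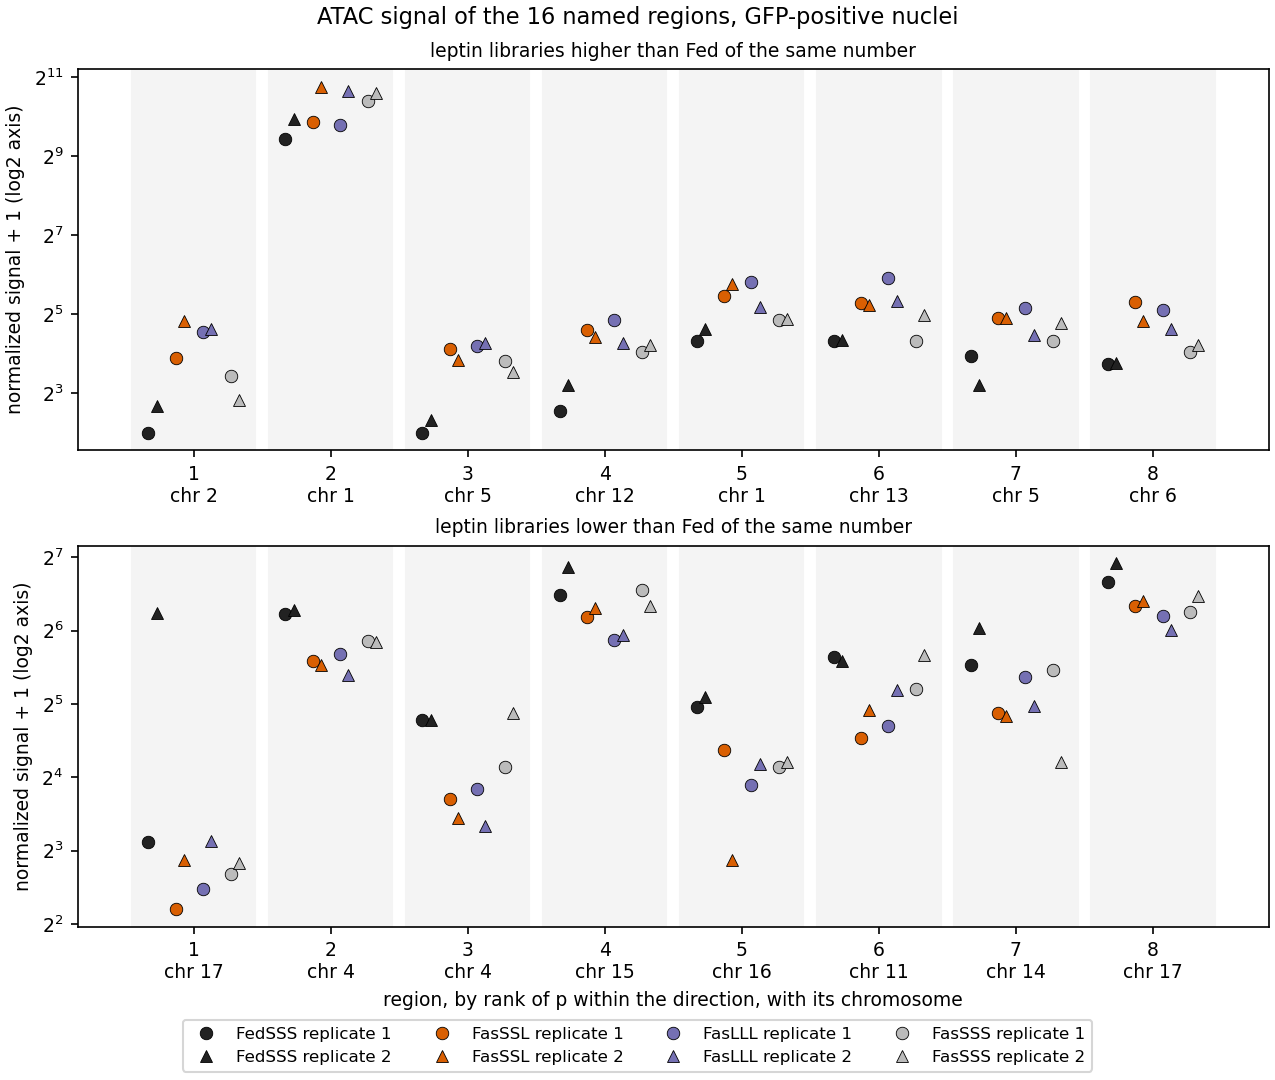
Normalized ATAC signal plus 1 (log2 axis) of the 8 higher and 8 lower named regions in each GFP-positive library, with Fed in black, FasSSL in orange, FasLLL in violet and FasSSS, which was not in the fit, in grey; circles are replicate 1 and triangles replicate 2. The Fed points lie below the leptin points in the upper panel, except that Fed replicate 2 passes the replicate 1 leptin libraries in region 2, and above them in the lower panel, except that Fed replicate 1 of region 1 lies among them.

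Lower ATAC signal had larger p-values: the 8 named regions had an adjusted p of 0.446 to 0.894. Counted over the 100 smallest p-values of the ATAC table, 84 regions were higher in the leptin libraries and 16 lower. The balance moved with the processing: of the ATAC regions at an unadjusted p under 0.05, 58.9% were higher (941 against 656 lower). With each library centred on its median it was 69.4% (1145 against 504). Against Fed it was 50.9% with FasSSL alone and 47.1% with FasLLL alone. The first lower region, on chromosome 17 (4626165 to 4626613), held 7.7 and 74.2 in Fed, 3.6 and 6.3 in FasSSL, and 4.6 and 7.8 in FasLLL. Its log2 difference of −2.0 (SE 0.47) came from Fed replicate 2, since it was −0.78 within replicate 1 and −3.23 within replicate 2, and the region passed the filter on a mean signal of 10 through that library. The second, on chromosome 4 (152070603 to 152072486), was even between replicates, with 73.9 and 76.9 in Fed, 47.1 and 45 in FasSSL, and 50.1 and 40.9 in FasLLL. There the groups did not overlap, the log2 difference was −0.71 (SE 0.18, limma adjusted p = 0.525), and FasSSS, at 56.7 and 56.4, lay between the groups.

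In GFP-negative nuclei the chromosome 4 region held 36.7 and 37.6 in Fed, 42.4 and 46.7 in FasSSL, and 36.1 and 51.1 in FasLLL, a log2 difference of 0.23. Its difference between the sorts, −0.94, had an unadjusted limma p of 0.000417 and was not called. The region was named for its GFP-positive values, which also enter the difference between the sorts, so that p is no separate support. Another region of chromosome 4 (152610283 to 152611141) held 26.4 in both Fed libraries, 12.1 and 9.9 in FasSSL, and 13.3 and 9.1 in FasLLL, a log2 difference of −1.19 (SE 0.32), while FasSSS held 16.6 and 28.5. On chromosome 15 (78546847 to 78551181), Fed held 88.8 and 116, FasSSL 71.9 and 78.5, and FasLLL 57.6 and 60.6, with the lowest values in FasLLL. A strong region on chromosome 17 (46841028 to 46842855), held 99.9 and 120 in Fed, 79.7 and 83.7 in FasSSL, and 72.5 and 63.2 in FasLLL. The regions on chromosomes 16 (50429051 to 50430763), 11 (103059668 to 103061459) and 14 (122505899 to 122506867) had log2 differences of −1.20, −0.77 and −0.77. In 7 of the 8 lower regions all 4 leptin libraries lay below both Fed libraries.

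H3K27ac was higher in the leptin libraries, without overlap, at each of the 8 named regions of that direction, all with an adjusted p of 1. At 2 of the 8 the Fed mean was under 10, so that they passed the filter through the leptin libraries. Regions on chromosomes 2, 9 and 3 show the values. On chromosome 2 (119641985 to 119643105), Fed held 7.8 and 5.1, FasSSL 30.0 and 14.6, and FasLLL 18.5 and 24.2, a log2 difference of 1.59 (SE 0.34). On chromosome 9 (15184444 to 15189741), the values were 58.8 and 64.0 in Fed, 103 and 94.4 in FasSSL, and 99.8 and 99.4 in FasLLL, a difference of 0.68 (SE 0.16). On chromosome 3 (116614192 to 116620326), Fed held 82.8 and 61.0, FasSSL 120 and 106, and FasLLL 115 and 110, a difference of 0.66 (SE 0.16). FasSSS held 10.9 and 10.6, 72.0 and 64.6, and 72.0 and 80.9 at these 3 regions. In H3K27ac, FasSSS replicate 1 had 0.0102% mitochondrial and 1.41% X chromosome signal, unlike the replicate 1 libraries of the fit. H3K27ac values of FasSSS are therefore a description, not a comparison with Fed.

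At 2 of the regions, 1 each on chromosomes 8 and 18, the difference was much larger in replicate 1. On chromosome 8 (19924696 to 19925615), Fed held 2.2 and 16.5, FasSSL 167 and 30.7, and FasLLL 65.5 and 22.3. The difference was 5.05 within replicate 1 and 0.64 within replicate 2. In GFP-negative nuclei the same region held 14.3 and 25.4 in Fed, 176 and 37.8 in FasSSL, and 140 and 34.6 in FasLLL, so replicate 1 of both leptin groups was high there too. On chromosome 18 (3117746 to 3119075), the difference was 2.98 within replicate 1 and 0.42 within replicate 2, with 5.7 and 14.3 in Fed, 46.8 and 19.5 in FasSSL, and 57.1 and 19.3 in FasLLL. On chromosome 13 (120275327 to 120282123), Fed held 115 and 140, FasSSL 191 and 173, and FasLLL 283 and 226, with differences of 1.01 and 0.50 within replicates 1 and 2, and GFP-negative nuclei gave a log2 difference of 0.72 against 0.75.

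For a region of chromosome 18 (33339783 to 33341572) the difference from Fed had opposite signs in the sorts. Its H3K27ac signal in GFP-positive nuclei was 15.2 and 12.1 in Fed, 44.9 and 33.4 in FasSSL, and 28.1 in both FasLLL libraries. In GFP-negative nuclei it was 31.2 and 20.0 in Fed, 23.3 and 12.4 in FasSSL, and 16.3 and 15.8 in FasLLL. The log2 differences were 1.22 and −0.57, and the difference between the sorts, 1.79 (SE 0.42), had a limma adjusted p of 0.979. On chromosome 8 (125842094 to 125843268) the difference was 1.20, with Fed at 9.0 and 17.6 and FasSSS at 28.8 and 34.8, above both. In GFP-negative nuclei replicate 1 held 15.2 in Fed, 12.6 in FasSSL, 15.2 in FasLLL and 41.1 in FasSSS. FasSSS replicate 1 was unlike the other replicate 1 libraries in mitochondrial and X chromosome signal, so its place above Fed was not taken as a change.

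Lower H3K27ac in the leptin libraries was led by regions at which Fed replicate 1 was the highest of the 6 libraries. On chromosome 12 (3109695 to 3110338), the region with the smallest p of the table, Fed held 7608 and 832, FasSSL 3698 and 363, and FasLLL 1289 and 380. The log2 difference was −1.48 (SE 0.22, adjusted p = 0.138). GFP-negative nuclei gave −1.22, with 27820.5 in Fed replicate 1 and 595 in replicate 2. On chromosome 4 (3016695 to 3018138), Fed held 382 and 16.5, FasSSL 48.7 and 7.4, and FasLLL 28.1 and 8.1. Also on chromosome 4 (145631969 to 145647074), Fed replicate 1 held 228 and Fed replicate 2 held 2.7, against 7.8 and 0.0 in FasSSL and 3.7 and 0.0 in FasLLL. Fed replicate 1 was far above every other library at the last 2 regions, while Fed replicate 2 stood near the leptin libraries.

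The same held for the other 5 lower regions, on chromosomes 4 (146988714 to 146991270), 7 (21572222 to 21576499), 14 (44744632 to 44750983 and 44803576 to 44806826) and 5 (94128289 to 94134107). Fed replicate 1 held 64.9 to 178 there and Fed replicate 2 held 6.3 to 10.9. At 5 of the 8 lower regions the leptin mean was under 10, so that they passed the filter through Fed. In all 8, the sign in GFP-negative nuclei was the same, with log2 differences of −3.03 to −1.22, and no difference between the sorts reached an unadjusted p under 0.05. Over the whole H3K27ac table, Fed replicate 1 exceeded each of the other 5 libraries at least 4-fold at 40 regions, against 0 to 2 for any other library of the comparison. At all 40 regions the GFP-negative Fed replicate 1 library also stood at least 4-fold above its 5 companions. Of these 40 regions, 9 lay between 93911152 and 94139809 on chromosome 5 and 11 between 145580196 and 147109803 on chromosome 4. Within replicate 2 alone the log2 differences of the 8 regions ran from −2.26 to −0.66.

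**Figure D4:**
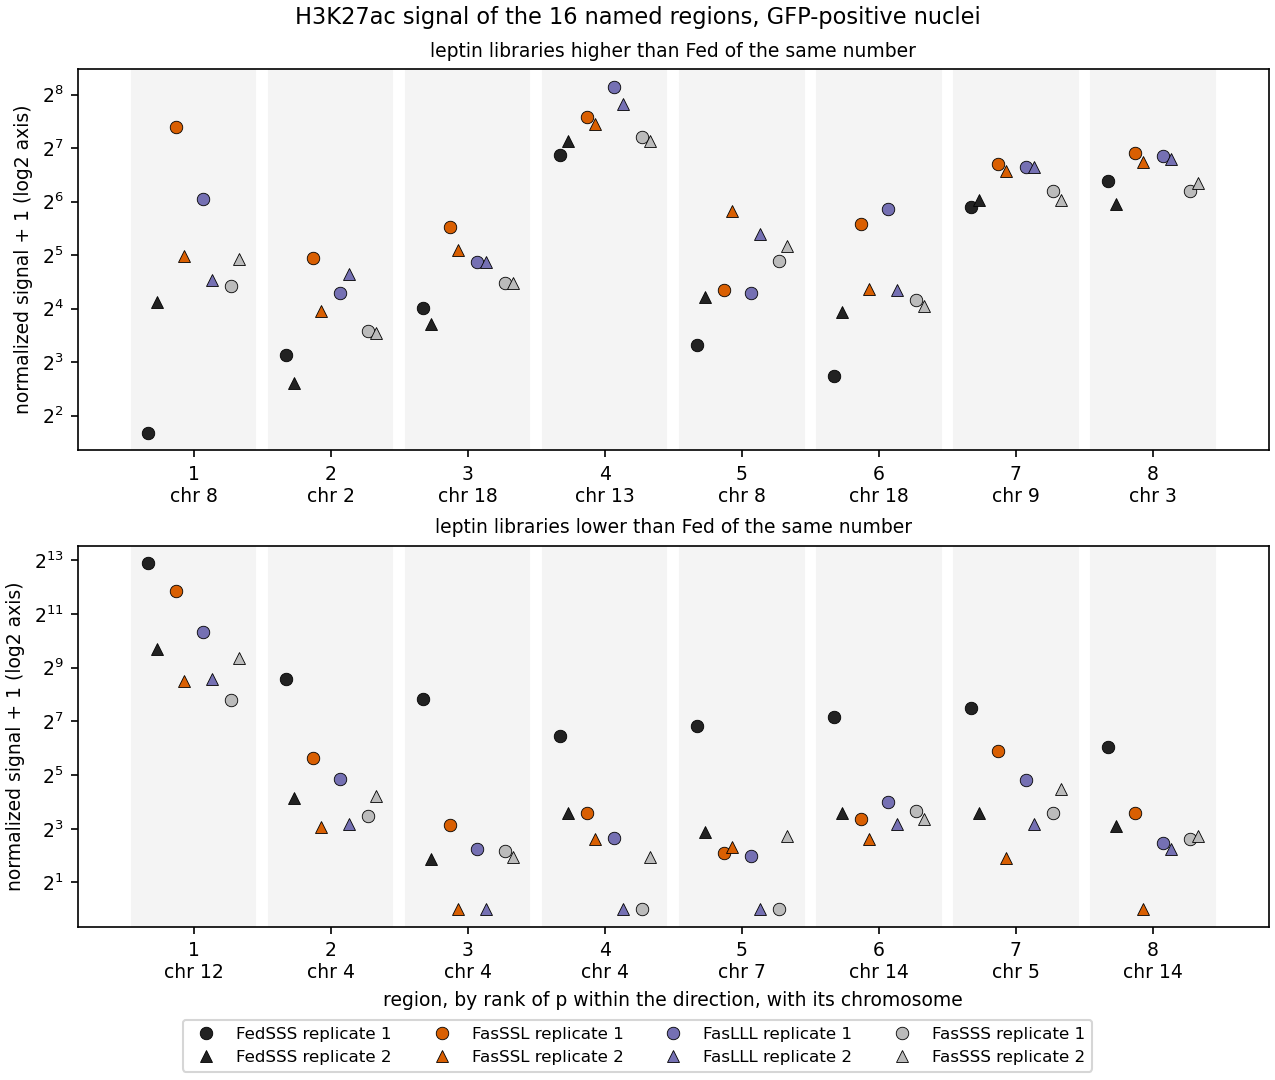
Normalized H3K27ac signal plus 1 (log2 axis) of the 8 higher and 8 lower named regions in each GFP-positive library, with colours and markers by treatment and replicate as given in the legend. In the lower panel the black circle, Fed replicate 1, stands above every other point in all 8 regions, while Fed replicate 2, the black triangle, is near the leptin libraries.

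The single and the repeated leptin treatments are set side by side at the named regions, with no test. They share the Fed libraries, and the regions were named from both groups pooled and on the same side of Fed, so a likeness between them is in part fixed by that choice. At the 8 higher ATAC regions FasSSL minus Fed ran from 0.63 to 2.02 (median 1.33) and FasLLL minus Fed from 0.54 to 2.25 (median 1.26), and FasSSS minus Fed from 0.31 to 1.53 (median 0.80). At the 8 lower ATAC regions the medians were −0.91 for FasSSL, −0.75 for FasLLL and −0.42 for FasSSS. Fasted saline libraries thus lay on the leptin side of Fed at all 16 named ATAC regions, by mean difference, at a smaller median size. The FasSSS values share the same Fed libraries by which the regions were named, so a shared sign is no independent support. The regions were named for the leptin libraries and not for FasSSS, so the smaller FasSSS size is also in part fixed by that choice. In H3K27ac the medians at the 8 higher regions were 1.38 for FasSSL and 1.04 for FasLLL. Single regions differed more, as on chromosome 13 (120275327 to 120282123), with 0.52 for FasSSL and 0.99 for FasLLL, and on chromosome 4 (146988714 to 146991270), with −1.90 and −3.68.

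**Figure D5:**
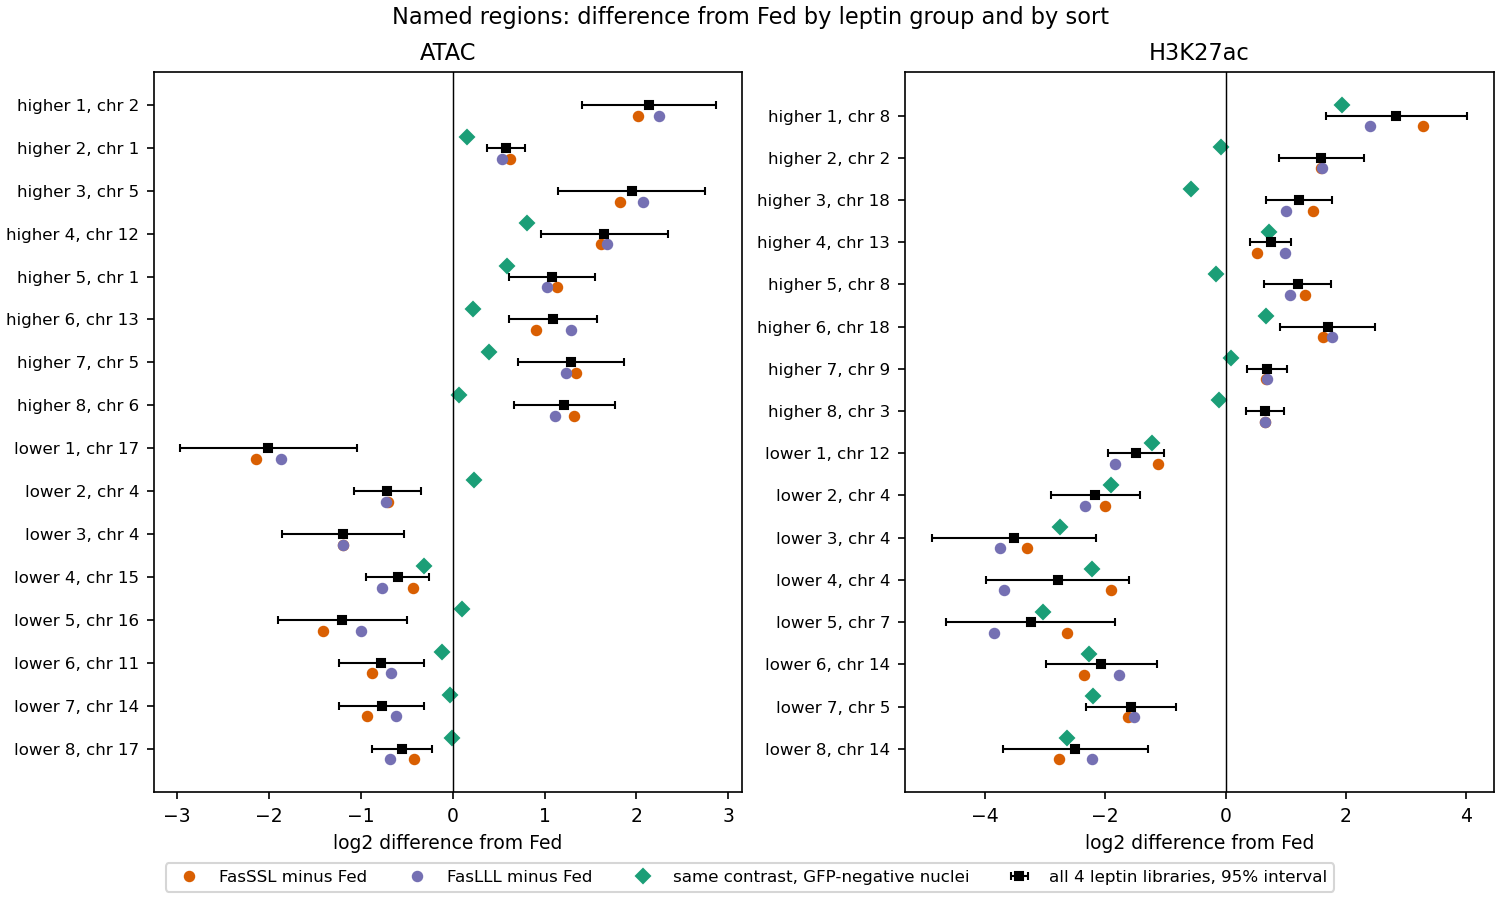
Log2 difference from Fed of the named regions (x axis), with the black square and bar giving the estimate and 95% interval for all 4 leptin libraries, orange and violet circles the 2 leptin groups, and green diamonds the same contrast in GFP-negative nuclei where the region passed the signal filter. For lower H3K27ac the diamonds lie on the same side of 0 as the squares in all 8 regions, and for lower ATAC they lie nearer to 0 than the squares. The regions were named for their GFP-positive values, so diamonds nearer to 0 are in part fixed by that choice.

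Whether a change differed between LepRb nuclei and the remaining hypothalamic nuclei was tested on its own, as an interaction of sort and treatment over 12 libraries per assay. Of 31388 ATAC regions, 0 (0%) were called, with a smallest adjusted p of 0.861, and 1662 (5.3%) had an unadjusted p under 0.05. Of 98444 H3K27ac regions, 0 (0%) were called, with a smallest adjusted p of 0.979, and 4787 (4.86%) had an unadjusted p under 0.05. Without GFP-positive Fed replicate 1 the ATAC count was 9, and without FasLLL replicate 1 it was 5. The smallest ATAC p belonged to a region at the end of chromosome 11 (3000029 to 3004671), which held 125 and 171 in Fed, 150 and 216 in FasSSL, and 63.8 and 161 in FasLLL in GFP-positive nuclei. In GFP-negative nuclei it held 294 and 136 in Fed, 61.0 and 75.4 in FasSSL, and 68.4 and 70.8 in FasLLL, so that the difference between sorts (1.42, SE 0.30) came from the negative sort. On chromosome 9 (72942042 to 72943762), ATAC signal went the opposite way in the 2 sorts: 64.6 and 55.2 in Fed against 42.0, 45, 47.6 and 34.3 in the leptin libraries of GFP-positive nuclei, and 30.4 and 32.1 against 45.2, 43.5, 47.6 and 47.9 in GFP-negative nuclei. Its difference between sorts was −1.05 (SE 0.25, limma adjusted p = 0.861).

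The smallest H3K27ac p of the interaction belonged to a region of chromosome 8 (119622745 to 119625442). GFP-positive nuclei held 41.6 and 29.4 in Fed, 24.6 and 26.1 in FasSSL, and 37.9 and 31.9 in FasLLL. GFP-negative nuclei held 12.5 and 7.3 in Fed, 41.4 and 25.3 in FasSSL, and 33.6 and 28.4 in FasLLL. The groups overlapped in GFP-positive nuclei and not in GFP-negative nuclei, and the difference between sorts was −1.85 (SE 0.39, limma adjusted p = 0.979). On chromosome 9 (79143651 to 79145278), Fed held 7.8 and 3.9 and the leptin libraries 11.6 to 26.4 in GFP-positive nuclei, against 35.2 and 17.2 in Fed and 6.9 to 16.1 in GFP-negative nuclei, a difference between sorts of 2.40 (SE 0.56).

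Open chromatin and H3K27ac were also set side by side at the same places. Of the 31424 ATAC regions, 30070 (95.7%) overlapped a tested H3K27ac region by 1 bp or more, and 23499 H3K27ac regions (24%) overlapped a tested ATAC region. Over the 30737 overlapping pairs, the 2 assays' log2 differences had a Spearman rho of 0.05, with −0.04 within replicate 1 and 0.02 within replicate 2. At ATAC regions higher in the leptin libraries at an unadjusted p under 0.05, the median H3K27ac difference was −0.02, and at those lower it was −0.05, against −0.04 over all pairs. H3K27ac was higher at 46.3% of the pairs with higher ATAC, where 37.8% of all pairs had higher H3K27ac. It was lower at 69.6% of the pairs with lower ATAC, where 62.2% of all pairs had lower H3K27ac. Higher ATAC at an unadjusted p under 0.05 was found in 911 pairs, and H3K27ac at that p was higher in 29 of them and lower in 24. Lower ATAC was found in 644 pairs, and H3K27ac at that p was lower in 26 of them and higher in 5. Of all H3K27ac regions that overlapped a tested ATAC region, 1.09% were higher and 2.49% lower at that p. Some pairs share a region, and these shares and counts were not tested. Of the 16 named ATAC regions, 13 overlapped a tested H3K27ac region, and in none of these had the H3K27ac difference an unadjusted p under 0.05. The smallest p of these 13 were at the ATAC regions on chromosome 4 (152070603 to 152072486), where the H3K27ac difference was −0.21, and on chromosome 1 (193065769 to 193066626), where it was 0.30, both with a limma adjusted p of 0.9999.

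Regions that set LepRb nuclei apart were then described, using the FasSSS libraries of both sorts, none of which enters the comparison. FasSSS mice were fasted for 36 h like the leptin mice, so the definition is not independent of a difference between fasted and Fed. A region was taken as higher in LepRb nuclei where GFP-positive exceeded GFP-negative signal by at least 1 log2 unit in both replicate numbers. There were 311 such ATAC regions, of which 26 (8.36%) were higher in the leptin libraries at an unadjusted p under 0.05 and 6 (1.93%) lower, beside 2.99% and 2.09% of all regions, and their median log2 difference was 0.03. Each replicate number alone sets 1 Fed library against 2 leptin libraries, its spread assumed to be that of the others. The higher share was then larger in replicate 1 than in replicate 2, as was the share of all ATAC regions at that p. It was 4.36% without FasLLL replicate 1 and 13.2% without FasLLL replicate 2. The background moved too: over all ATAC regions 718 and 1250 were higher in these 2 fits, against 941 in the main fit. In either direction, 4.06% and 7.42% of all ATAC regions had an unadjusted p under 0.05 there, against 5.08%. Mean log2 signal of these regions minus that of the 105 ATAC regions lower in LepRb nuclei was 0.25 and 0.08 in Fed, 0.33 and 0.16 in FasSSL, and 0.50 and −0.17 in FasLLL, so FasLLL replicates 1 and 2 held the highest and the lowest of the 6 values. The 311 regions were also short, with a median of 607 bp against 1038 bp over all ATAC regions. In the shortest 10% of ATAC regions 4.39% were higher and 1.81% lower at an unadjusted p under 0.05. The parts of width and of how the nuclei were sorted in the 8.36% were not tested.

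H3K27ac gave 899 regions higher and 3315 lower in LepRb nuclei by the same definition. Of the 899, 24 (2.67%) were higher and 23 (2.56%) lower in the leptin libraries at an unadjusted p under 0.05, with a median log2 difference of −0.04. Over all H3K27ac regions the shares were 2.05% and 1.86%, near those of the 899. Of the 3315, 182 (5.49%) were higher and 10 (0.302%) lower, with a median of 0.11 against −0.01 over all H3K27ac regions. In the fit of replicate 2 alone, fewer of the 3315 were higher than lower. That fit sets 2 leptin libraries against 1 Fed library, whose spread is assumed to be that of the others. Its shares over all H3K27ac regions are not given here, so its order is not set against a background. The mean log2 signal of the 899 minus that of the 3315 regions was −0.53 in Fed, −1.04 in FasSSL and −0.75 in FasLLL of replicate 1, and −0.01, 0.13 and 0.00 in replicate 2. In replicate 1 both leptin libraries thus stood closer to the GFP-negative libraries of the same treatments (−2.01 to −1.46) than Fed did, and the part of this in the 5.49% was not tested.

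In H3K27ac the balance of higher and lower regions differed with width and with signal. In the longest 10% of H3K27ac regions (9723 bp or more) 1.02% were higher and 2.4% lower at an unadjusted p under 0.05, with a median log2 difference of −0.02. In the shortest 10% (1065 bp or less) 2.28% were higher and 1.27% lower, with a median of 0.02. In the 25% of H3K27ac regions with the highest signal 1.04% were higher and 2.24% lower, and in the 25% with the lowest signal 2.22% and 1.45%. The shares over all H3K27ac regions were 2.05% and 1.86%. In the shortest 10% of ATAC regions 4.39% were higher and 1.81% lower, and in the longest 10% 2.13% and 2.32%. The shares over all ATAC regions were 2.99% and 2.09%, and whether the classes of either assay differ was not tested. The X chromosome, counted apart, had 546 tested ATAC regions, of which 23 (4.21%, beside 5.08% of all ATAC regions) had an unadjusted p under 0.05, and 1431 H3K27ac regions, of which 57 did (3.98%, beside 3.92% of all). The X chromosome thus lay near the background in both assays. On the Y chromosome, 10 of 27 H3K27ac regions (37%, beside 3.92% of all) had an unadjusted p under 0.05, with a median log2 difference of 0.475. The summed Y signal was 2855 and 2020 in Fed, 12703 and 1531 in FasSSL, and 5428 and 1468 in FasLLL, so it was higher with leptin in replicate 1 and lower in replicate 2.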

How the data were processed

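The authors deposited, per the file headers, a table for each assay with the normalized signal of every region in 16 libraries, 2 per treatment and sort. Its values carry 1 decimal. How they were normalized, and the read depth behind them, are not given in the sources used. The build is mm9 per the submitters' processing notes, which also list Bowtie 1.2, Bowtie2 2.2.6, MACS2 and other tools without tying them to an assay. The 32 columns of variance-stabilized values were not used, nor were the authors' own comparisons, and 43 of the 75 samples (RNA and input libraries) were not analysed here.

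Samples were grouped by their titles. Of the 48634 ATAC and 126368 H3K27ac regions, those with a mean signal of 10 or more over the 6 libraries compared were tested. Values were taken to log2(signal + 1), which understates changes of weak regions, and limma (version 3.58.1, R version 4.3.3) was run on them with an intensity trend and the replicate number as a block (3 residual degrees of freedom before moderation). P-values are two-sided, were adjusted by Benjamini-Hochberg over all regions tested, and called a region under 0.05. The labels do not say what a replicate number shares, but same-numbered libraries deviated together from their group means (r from 0.15 to 0.23 in ATAC and from 0.56 to 0.64 in H3K27ac), so the numbers were taken to pair them. The interaction of sort and treatment used the same libraries of both sorts with a block within each sort. No 2 libraries were identical. The fits were tested on simulated data.

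Named regions were the 8 of smallest p in each assay and direction in which both leptin libraries of a number lay on the same side of Fed in both numbers, and, for the interaction, regions among the 3 of smallest p in each direction. As no region was called, all were given as values. Members and lists were chosen with earlier results of these data known. Positions are mm9, counted from 1, and no annotation or genome of that build was used, so no gene names, markers or sequences are given. Alternatives covered the block, grouping, pseudocount, filter, scaling, threshold, library weights and each library left out; each replicate number on its own was added after seeing the data.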

Additional observations from a re-analysis of the deposited data

Results flagged for a closer look

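In the ATAC region of chromosome 13 (112100109 to 112101156), FasLLL replicate 1, at 58.9, stood apart from the other 3 leptin libraries, which held 36.3 to 39.6. The gap was 0.854 of the range of the 4 libraries, above Dixon's 95% critical value for 4 values. This was 1 flag among 42 such checks of named regions and library values, and about 1 in 20 is flagged by chance.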

How the results depend on the processing

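The main count was 0 in each assay and for each difference between sorts. In ATAC, 0 regions were called with no replicate block, with a pseudocount of 0.5 or 5 and with a mean signal of 20 or more. The count was 1 with all 8 GFP-positive libraries in the fit, quantile normalization, median centring or library weights, and 2 with FasSSL and FasLLL as groups of their own, the filter on the mean of 16 libraries or an adjusted p under 0.1. With no filter it was 25, all with a mean signal of at most 1.32. In H3K27ac, 0 regions were called with no replicate block, either pseudocount, either filter, no filter, median centring, all 8 libraries or an adjusted p under 0.1; 1 was called with the leptin groups apart, 2 with quantile normalization and 16 with library weights. FasSSL alone against Fed gave 10 ATAC and 66 H3K27ac regions, and FasLLL alone 20 and 106, each with 1 residual degree of freedom before moderation. Leaving out 1 library gave 0 to 4 ATAC and 0 to 67 H3K27ac regions. Replicate 1 alone gave 1 ATAC and 0 H3K27ac regions, and replicate 2 alone 2 and 11. For the difference between sorts, no replicate block, a pseudocount of 5 or quantile normalization gave 0 in both assays, no filter gave 11 ATAC and 0 H3K27ac regions, and leaving out 1 library gave 0 to 9 ATAC regions (9 without GFP-positive Fed replicate 1, 5 without GFP-positive FasLLL replicate 1, 1 without replicate 2 of Fed in either sort) and 0 to 5 H3K27ac regions (5 without GFP-negative Fed replicate 2, 3 without GFP-positive Fed replicate 2, 1 without GFP-negative Fed replicate 1). The cause of these shifts was not tested.

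Regions at an unadjusted p under 0.05 numbered 862 in H3K27ac without the replicate block, 1473 with all 8 libraries, 5959 with library weights, 7090 with FasLLL alone, 1968 in replicate 1 alone and 2170 without Fed replicate 1, against 3827. In ATAC they numbered 843 at a mean signal of 20 or more, against 1597. As fewer regions were tested there, the share was nearly the same, 5.06% against 5.08%. No named region changed sign in any of 343 ATAC and 338 H3K27ac re-estimates, which the naming rule partly fixes; 21 and 52 of them passed an adjusted p of 0.05, in 5 ATAC and 16 H3K27ac regions.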
